A study of Mus musculus with 18 samples.

Results

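The genes described here are 10 genes of voltage-gated calcium channel subunits, *Cacna1a*, *Cacna1b*, *Cacna1c*, *Cacna1h*, *Cacna2d1*, *Cacna2d2*, *Cacna2d3*, *Cacnb3*, *Cacnb4* and *Cacng2*. They were chosen by name from the alpha1, alpha2delta, beta and gamma families, with earlier results of these data known. Every probe set annotated to them was taken. Of the 10, 9 had at least 1 probe set named for that gene alone, with 27 such probe sets together, out of 18193 genes and 45037 probe sets measured. *Cacnb3* had none and was not analysed here. Each of the 9 genes is given by its brightest probe set, as a log2 intensity, so that a difference of 1 is a doubling of the signal.

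RNA came from whole dorsal root ganglia (DRG) of adult mice and was hybridised to Affymetrix mouse genome arrays, 18 in all. Each of 3 mouse lines gave 3 KO arrays and 3 arrays of littermate controls. Nav1.7 KO mice carried a floxed *Scn9a* removed by Advillin-Cre, which acts in sensory neurons. The Nav1.8 line was null for *Scn10a* in all cells, and the Nav1.9 line for *Scn11a*. All 3 deleted channels are sodium channels of damage-sensing neurons. Littermates of each line are labelled Wild Type, and whether those of the Nav1.7 line carried the floxed allele or Cre is not stated. The methods describe young adult mice of both sexes, with no strain given for the 3 lines. The study counts the samples of the Nav1.7 line as mice. For the other lines the sources do not say whether an array held 1 animal or a pool. The p-values there measure the spread between these samples, which may be technical. The main fit shares 1 spread over all 18 arrays, so the p-values of the Nav1.7 line carry the same limit. In whole DRG, fewer cells of a type and less RNA per cell cannot be told apart.

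A voltage-gated calcium channel opens when the membrane is depolarised and lets calcium into the cell, where it triggers transmitter release, shapes firing and signals to the nucleus. The alpha1 subunit forms the pore and sets the channel type. The alpha2delta subunits, which are bound by gabapentin where they are alpha2delta-1 or alpha2delta-2, and the intracellular beta subunits bring the pore to the membrane and tune its gating. Gamma subunits such as that of *Cacng2* are better known as partners of AMPA-type glutamate receptors.

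The targeted genes and the composition of the samples were looked at first. *Scn10a* was 2.98-fold lower in Nav1.8 KO than in littermate DRG (limma, adjusted p = 5.4e-05), and *Scn11a* fell by 3.62-fold in the Nav1.9 line (adjusted p = 7.13e-07). *Scn9a* differed by -0.06 between Nav1.7 KO and littermate DRG (adjusted p = 0.642). The position of its probe set relative to the deleted exons is not known here, so this value was not read as a check of the deletion. *Avil*, the gene that drives Cre in the Nav1.7 line, fell there by 1.56-fold (adjusted p = 8.03e-08), so loss of Nav1.7, Cre and a lower *Avil* cannot be told apart in that line. *Xist*, which is expressed from the inactive X chromosome of females, was at 11.97 to 12.52 in 7 arrays and at 5.08 to 5.65 in 11 arrays. Of the Nav1.7 line all arrays but KO replicate 2 were high, of the Nav1.8 line KO replicates 2 and 3 alone were high, and all arrays of the Nav1.9 line were low. Arrays of a group correlated at 0.9958 to 0.9982.

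In Nav1.7 KO DRG, 4 of the 9 measured subunit genes fell and none rose at an adjusted p under 0.05. They were *Cacna1h*, *Cacna2d3*, *Cacnb4* and *Cacng2*, each from a different family, and each fell by 1.19- to 1.30-fold. Over all genes, 4.33% passed in this line in either direction, 2.51% as lower and 1.81% as higher. Of the 15 other measured subunit genes of the family, 0 passed in this line. The median log2 difference was -0.14 over the 9 genes and 0.01 over all genes. The value of -0.14 is that of *Cacna2d2*, whose arrays overlapped and which did not pass (SE 0.326, limma, adjusted p = 0.888). It therefore does not show a shift shared by the 9 genes. The 4 genes that passed lay between -0.38 and -0.25, and *Cacna1a*, *Cacna1b*, *Cacna1c* and *Cacna2d1* between -0.01 and 0.08. The KO and littermate arrays did not overlap for 5 of the 9 genes, against 20.4% of all genes. The fifth was *Cacna2d1*, which was higher in the KO arrays and did not pass. At an unadjusted p under 0.01 with a fold change over 1.5, which the study used, 0 of the 9 passed in any line, against 0.676% of all genes in the Nav1.7 line, 0.055% in the Nav1.8 line and 0.22% in the Nav1.9 line.

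**Figure D1:**
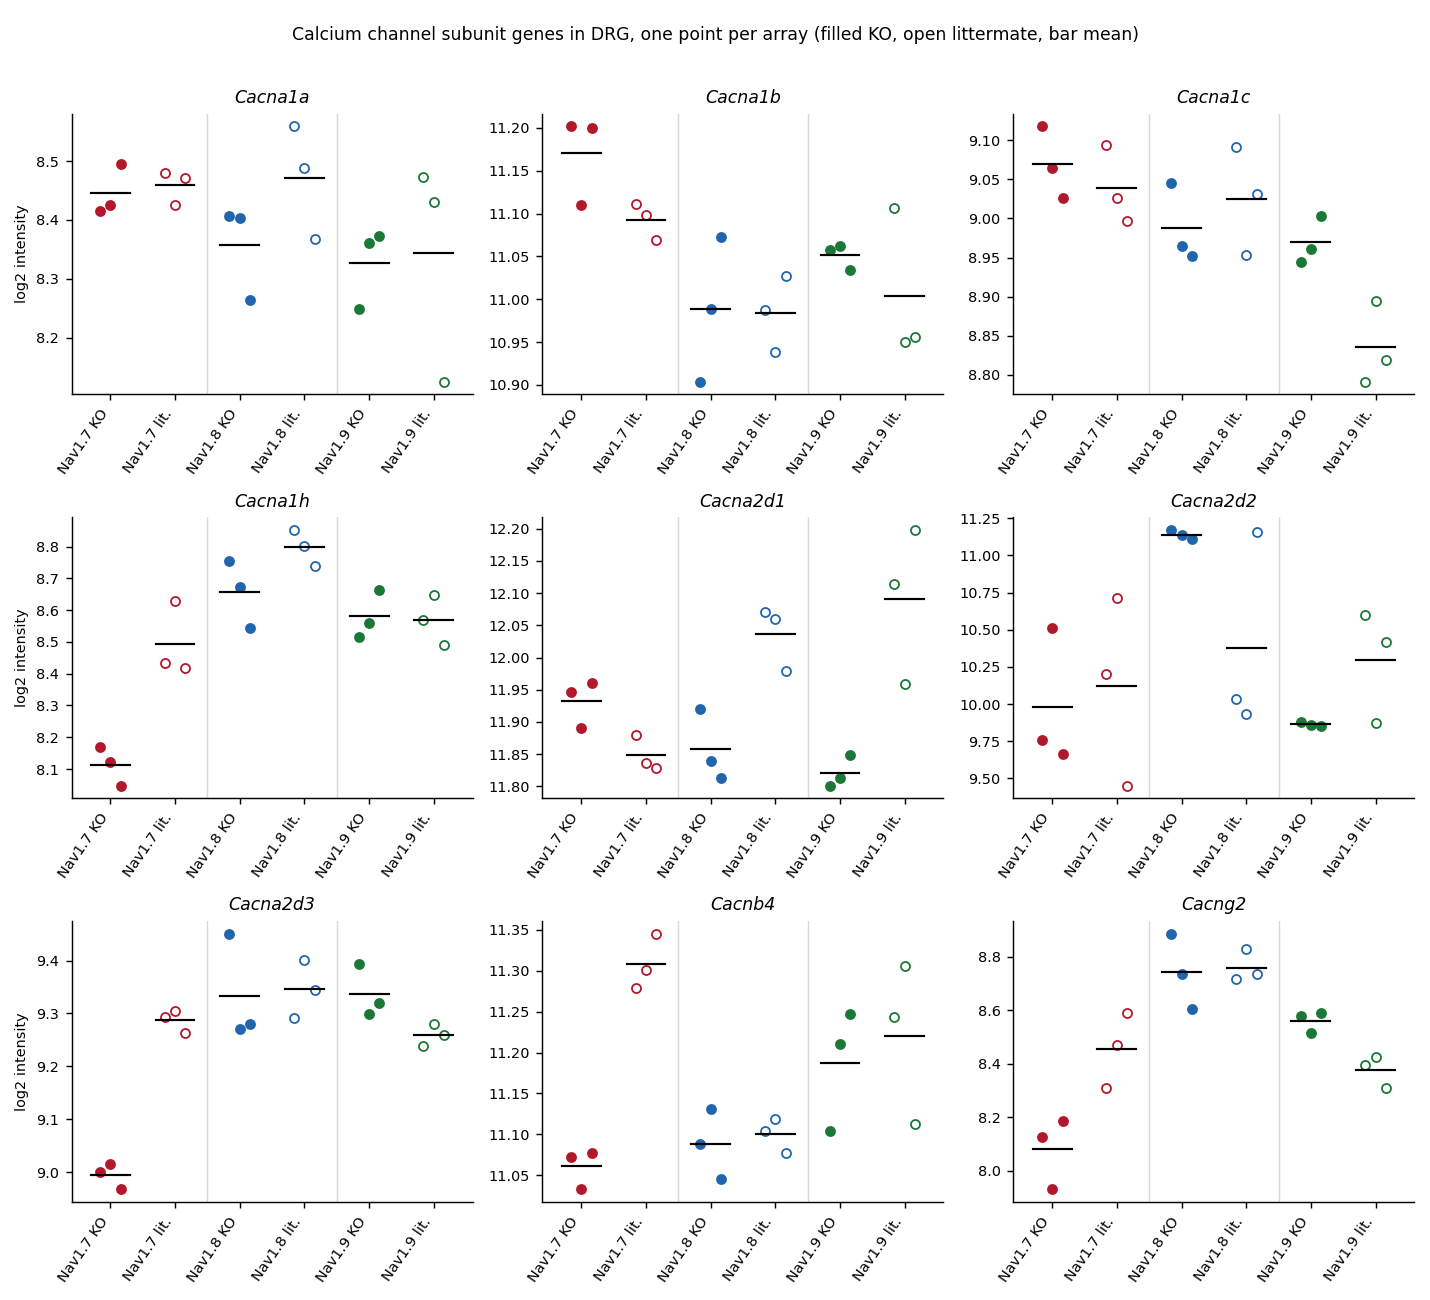
Log2 intensity of the 9 measured subunit genes (y axes, separate scales that do not start at 0) in the 6 groups (x axes), with 1 point per array, filled for KO and open for littermates, and a bar at each group mean. The Nav1.7 KO arrays of *Cacna1h*, *Cacna2d3* and *Cacng2* lie below all 15 other arrays.

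*Cacna1h* encodes the pore of the T-type channel Cav3.2, which opens at small depolarisations and is abundant in mechanosensory and damage-sensing neurons. It read 8.17, 8.12 and 8.05 in the 3 Nav1.7 KO arrays, against 8.43, 8.63 and 8.42 in the littermate arrays. No KO array reached a littermate array, and the highest KO array was also below the lowest of all 15 other arrays, as for *Cacna2d3* and *Cacng2* and for 2.07% of all genes. The log2 difference was -0.38 with a standard error of 0.0684, or 1.30-fold lower (adjusted p = 0.00367). Its second probe set was dim, at 4.92 to 4.97 in KO and 4.87 to 5.04 in littermate arrays, and differed by -0.01.

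The other 3 pore genes did not pass in Nav1.7 KO DRG. *Cacna1a*, the pore of P/Q-type channels, averaged 8.45 ± 0.0439 in KO and 8.46 ± 0.0292 in littermate DRG (SD, n = 3 each), a difference of -0.01 with a 95% interval from -0.18 to 0.15. *Cacna1b* encodes the pore of the N-type channel Cav2.2, which carries much of the calcium for release from the central ends of sensory neurons. It averaged 11.17 ± 0.0523 in KO and 11.09 ± 0.0217 in littermate DRG, a difference of 0.08 with an interval from -0.03 to 0.19. *Cacna1c*, the pore of the L-type channel Cav1.2, averaged 9.07 ± 0.0461 in KO and 9.04 ± 0.0501 in littermate DRG, a difference of 0.03 with an interval from -0.07 to 0.13. These intervals do not reach a loss of the size estimated for *Cacna1h*, whose own interval ran from -0.53 to -0.24. By probe set, the differences ran from -0.08 to 0.12 for *Cacna1a* and from -0.01 to 0.20 for *Cacna1b*, with 4 probe sets each. The 2 probe sets of *Cacna1c* gave 0.03 and 0.06, and none of these passed. Without probe sets of the cross-hybridizing kind, *Cacna1b* was at 0.09 (limma, adjusted p = 0.453).

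*Cacna2d3* encodes alpha2delta-3, an auxiliary subunit linked to heat pain in flies and mice. It read 9.00, 9.02 and 8.97 in the Nav1.7 KO arrays, against 9.29, 9.30 and 9.26 in littermates. The 3 KO arrays lay close together and below all 15 other arrays, the lowest of which read 9.24. The log2 difference was -0.29 (SE 0.0485), 1.22-fold lower, with an adjusted p of 0.00198. It is the one gene of the 4 that passed under all 18 alternative settings of the fit, including the leaving out of each array of the line, although not at the fold threshold of the study.

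The other alpha2delta genes did not pass in Nav1.7 KO DRG. *Cacna2d1*, whose product alpha2delta-1 is the main target of gabapentin and is known to increase in DRG neurons after nerve injury, read 11.95, 11.89 and 11.96 in Nav1.7 KO and 11.88, 11.84 and 11.83 in littermate arrays. All KO arrays were above all littermate arrays, but the difference of 0.08 did not pass (SE 0.0534, adjusted p = 0.478). The 5 probe sets of *Cacna2d1* split here, with differences of -0.15, -0.11, -0.06, 0.08 and 0.20, the last from a dim probe set. *Cacna2d2* read 9.76, 10.51 and 9.66 in KO against 10.20, 10.71 and 9.45 in littermate arrays, which overlap over most of their range.

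*Cacnb4* encodes the beta4 subunit, which binds the pore from inside the cell and has also been found in the nucleus. It read 11.07, 11.03 and 11.08 in Nav1.7 KO arrays against 11.28, 11.30 and 11.34 in littermates. The KO arrays were below their own littermates but not below all other arrays, since the lowest array of the Nav1.8 line read 11.05. The log2 difference was -0.25 (SE 0.0502), 1.19-fold lower, with an adjusted p of 0.00887. A second probe set of the gene gave -0.31 (adjusted p = 0.000353 over all probe sets), with 10.08, 10.04 and 10.09 in KO against 10.34, 10.42 and 10.38 in littermate arrays. The third gave -0.01.

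*Cacng2* encodes gamma-2, or stargazin, which carries AMPA receptors to the synapse and is mutated in stargazer mice. It read 8.12, 7.93 and 8.19 in Nav1.7 KO arrays, against 8.31, 8.47 and 8.59 in littermates. The KO arrays were the lowest 3 of the 18. The log2 difference was -0.37 (SE 0.0812), 1.30-fold lower, with an adjusted p of 0.014. The other 2 probe sets of *Cacng2* were also lower, by -0.16 and -0.13, and did not pass. The call for *Cacng2* was lost without littermate replicate 3 (adjusted p = 0.0707) or without KO replicate 2 (adjusted p = 0.0714).

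The number of genes that passed in Nav1.7 KO DRG depended on the arrays and probe sets used. Without the arrays that differed in *Xist* from the rest of their line (Nav1.7 KO replicate 2 and Nav1.8 KO replicates 2 and 3, a choice made after seeing the data), *Cacna1h* (adjusted p = 0.0164) and *Cacna2d3* (adjusted p = 0.00374) passed, while *Cacnb4* (adjusted p = 0.0627) and *Cacng2* (adjusted p = 0.0506) did not. With all probe sets of a gene averaged, *Cacna2d3* alone passed, and *Cacna1h* was at -0.20 (adjusted p = 0.111).

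**Figure D2:**
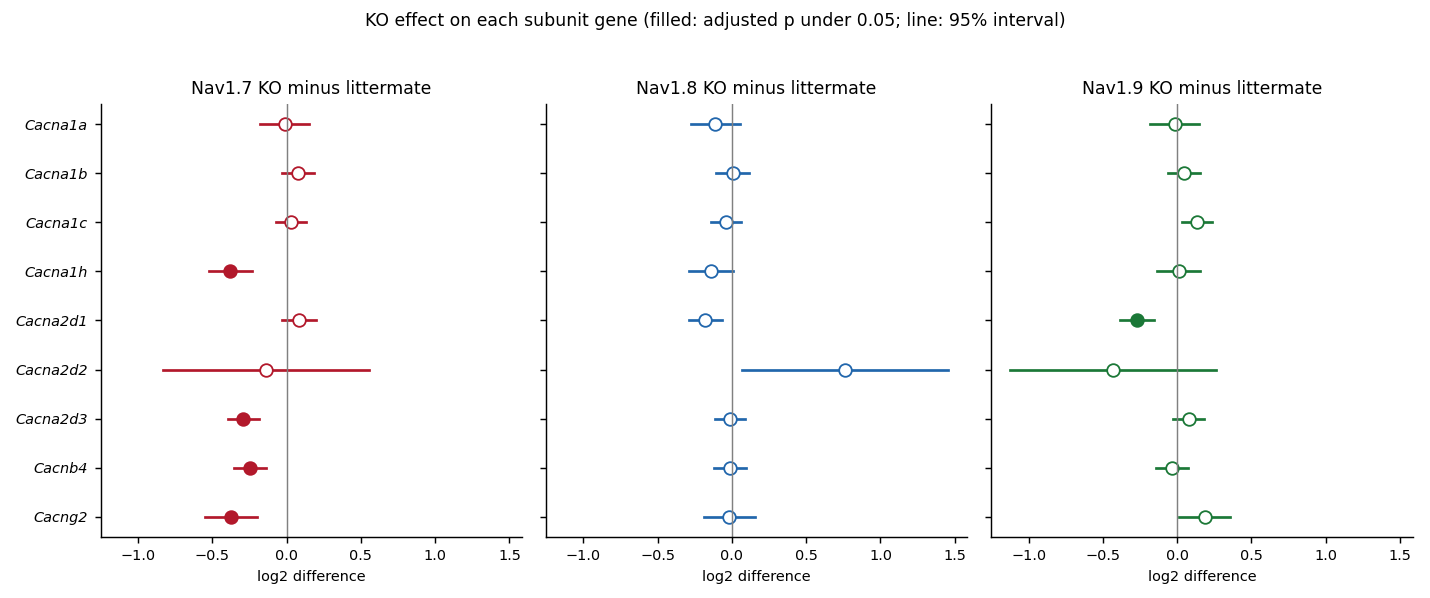
Log2 difference, KO minus littermate (x axes), of the 9 subunit genes (y axis) in the 3 lines (panels), with 95% intervals from the fit and filled points where the adjusted p is under 0.05. Filled points left of 0 are 4 genes in the Nav1.7 line and *Cacna2d1* alone in the Nav1.9 line, with none in the Nav1.8 line.

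The upstream sequence of 2 of the genes that fell in Nav1.7 KO DRG is shown with that of *Cacna2d1*, which did not fall there. Each is the 250 bases before the start of the RefSeq transcript in GRCm38.p6, read 5′ to 3′ on the strand of the gene, and capitals mark GC boxes (GGGCGG on either strand, neighbouring matches may overlap). *Cacna2d3* lies on chr14:29721865-29722114 (minus strand), *Cacng2* on chr15:78119281-78119530 (minus strand) and *Cacna2d1* on chr5:15934441-15934690 (plus strand).
Cacna2d3: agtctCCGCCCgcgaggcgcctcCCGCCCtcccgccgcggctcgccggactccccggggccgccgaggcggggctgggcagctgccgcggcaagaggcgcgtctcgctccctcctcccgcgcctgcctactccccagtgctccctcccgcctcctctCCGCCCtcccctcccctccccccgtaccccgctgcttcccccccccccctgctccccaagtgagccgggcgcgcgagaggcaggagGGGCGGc
Cacng2: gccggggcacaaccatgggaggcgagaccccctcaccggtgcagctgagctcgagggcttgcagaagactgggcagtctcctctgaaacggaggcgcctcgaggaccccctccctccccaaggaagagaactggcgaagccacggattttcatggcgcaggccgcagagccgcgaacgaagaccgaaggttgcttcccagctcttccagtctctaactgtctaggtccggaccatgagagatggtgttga
Cacna2d1: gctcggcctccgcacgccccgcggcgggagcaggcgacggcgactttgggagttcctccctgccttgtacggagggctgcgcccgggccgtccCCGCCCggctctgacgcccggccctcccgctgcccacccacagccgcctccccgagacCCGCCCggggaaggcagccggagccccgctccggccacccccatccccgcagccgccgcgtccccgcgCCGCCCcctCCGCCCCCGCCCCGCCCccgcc
The *Cacna2d3* window is 80.0% G and C with 4 GC boxes, that of *Cacng2* 62.0% with 0, and that of *Cacna2d1* 82.4% with 6. Among all 32851 promoters of the table the median is 52.4%, and 32.7% hold a GC box. None of the 3 windows holds TGACGTCA (the CRE, in 1.55% of promoters), TGANTCA (AP-1, 6.75%), TGTGGT (RUNX, 14.0%) or TGGAAA (NFAT, 18.6%) on either strand. *Cacnb4*, which also fell in Nav1.7 KO DRG, has 3 windows that are not shown. The first is 79.6% G and C with 6 GC boxes, the second 71.2% with 0 GC boxes and 1 RUNX match, and the third 48.8% with no match to any of the 5 motifs. Of the 10 genes, 8 have an entry in the table, with 13 start sites in all, and *Cacna1a* and *Cacna1h* do not. A match of letters is a description of the window and not a binding site.

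At the level of single probe sets, 5 of the 27 passed in Nav1.7 KO DRG, against 2.27% of all probe sets. They were 2 of 3 for *Cacnb4*, 1 of 3 for *Cacng2*, 1 of 2 for *Cacna1h* and the single probe set of *Cacna2d3*, all lower in KO. In Nav1.8 KO DRG 0 of 27 passed (0.00666% of all probe sets), and in Nav1.9 KO DRG 0 of 27 passed (0.242%). With the 18193 genes as the family, *Cacna2d1* passed in Nav1.9 KO DRG, while over all probe sets the same probe set had an adjusted p of 0.0648.

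**Figure D3:**
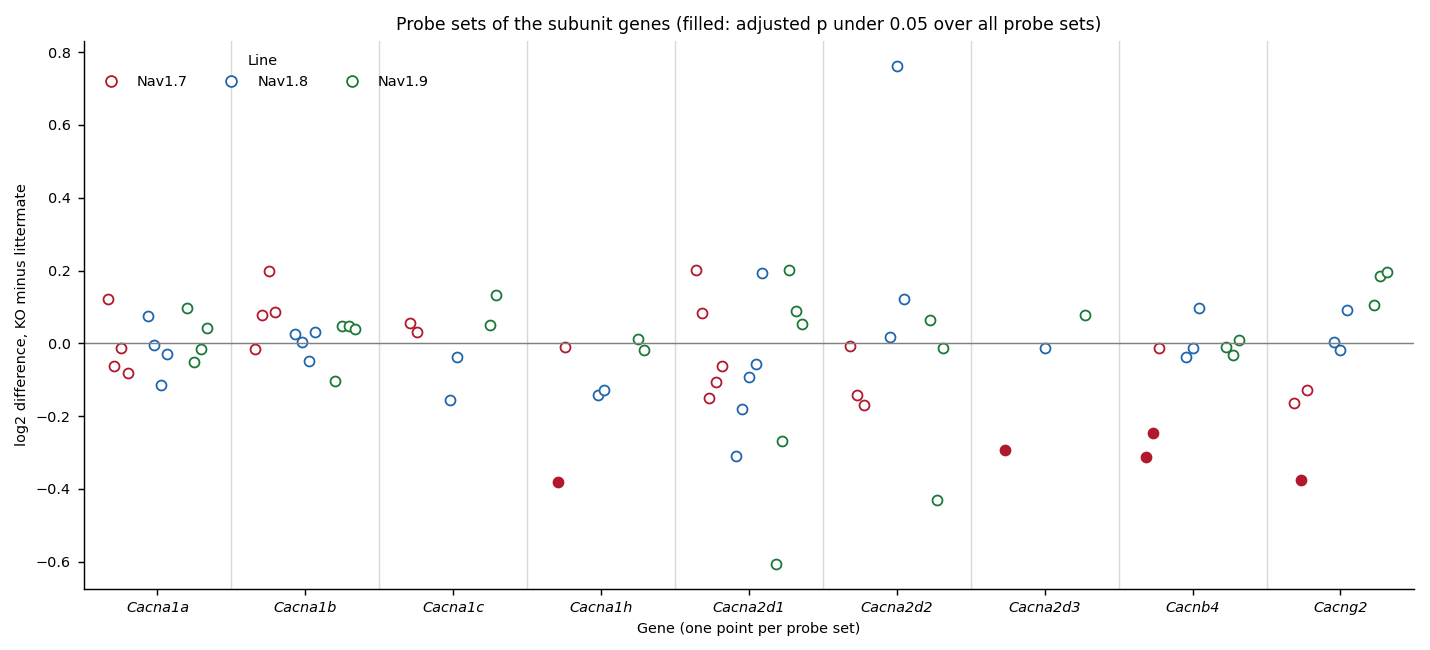
Log2 difference, KO minus littermate (y axis), of the 27 probe sets of the 9 subunit genes (x axis), coloured by line and filled where the adjusted p over all probe sets is under 0.05. The 5 filled points are of the Nav1.7 line and lie between -0.38 and -0.25.

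In Nav1.9 KO DRG 1 of the 9 genes passed, with 0.473% of all genes (0.313% as lower and 0.159% as higher), and it was *Cacna2d1*. It read 11.80, 11.81 and 11.85 in the Nav1.9 KO arrays, against 12.11, 11.96 and 12.20 in littermates. The KO arrays were tight and the littermate arrays spread, with no overlap. The log2 difference was -0.27 (SE 0.0534), 1.21-fold lower, with an adjusted p of 0.0358. The 5 probe sets of the gene split, with differences of -0.61, -0.27, 0.05, 0.09 and 0.20, none of which passed over all probe sets. The lowest was from a dim probe set, which averaged under the 40th percentile of brightness. The call held without littermate replicate 2 (adjusted p = 0.00486) and was lost without any other array of the line, with adjusted p from 0.0828 to 0.146. It was also lost when all probe sets of the gene were averaged, where the difference was -0.11 (adjusted p = 0.719).

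None of the genes that fell in Nav1.7 KO DRG passed in Nav1.9 KO DRG. *Cacna1h* read 8.52, 8.56 and 8.66 in Nav1.9 KO against 8.57, 8.65 and 8.49 in littermate arrays. *Cacna2d3* read 9.39, 9.30 and 9.32 in KO against 9.24, 9.28 and 9.26 in littermate arrays, and *Cacng2* read 8.58, 8.52 and 8.59 in KO against 8.40, 8.42 and 8.31 in littermate arrays. *Cacnb4* differed by -0.03. For *Cacna2d3* and *Cacng2*, all KO arrays were above all littermate arrays, with differences of 0.08 for *Cacna2d3* (adjusted p = 0.561) and 0.18 for *Cacng2* (adjusted p = 0.378) that did not pass. *Cacna1c* was likewise higher in every KO array, by 0.13 (adjusted p = 0.265). Together with *Cacna2d1*, 4 of the 9 genes did not overlap between the groups, against 18% of all genes.

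In Nav1.8 KO DRG 0 of the 9 genes passed by limma, with 0.0165% of all genes, and 2 had an unadjusted p under 0.05 (1472 of all 18193 genes). *Cacna2d1* read 11.92, 11.84 and 11.81 in Nav1.8 KO arrays, against 12.07, 12.06 and 11.98 in littermates. It was the 1 gene of the 9 whose groups did not overlap (13.8% of all genes), and the difference of -0.18 did not pass (SE 0.0534, adjusted p = 0.491). *Cacna2d2* differed by 0.76 with a wide standard error of 0.326 (adjusted p = 0.582). *Cacna1h* averaged 8.66 ± 0.108 in KO and 8.80 ± 0.0557 in littermate DRG (SD, n = 3 each), a difference of -0.14 with an interval from -0.29 to 0.00. For *Cacna2d3*, *Cacnb4* and *Cacng2* the differences were between -0.02 and -0.01.

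Whether the KO effect differed between lines was tested as the difference of the differences. Between Nav1.7 and Nav1.9, 4 of the 9 genes passed, with 2.82% of all genes. The Nav1.7 effect minus the Nav1.9 effect was -0.39 for *Cacna1h* (adjusted p = 0.0397), -0.37 for *Cacna2d3* (adjusted p = 0.00661) and -0.56 for *Cacng2* (adjusted p = 0.0129). For *Cacna2d1* it was 0.35 (adjusted p = 0.0162). Between Nav1.7 and Nav1.8, 1 of the 9 passed, with 2.15% of all genes, and it was *Cacna2d3* at -0.28 (adjusted p = 0.0469). *Cacnb4* did not pass in either test, with -0.24 against Nav1.8 (adjusted p = 0.111) and -0.21 against Nav1.9 (adjusted p = 0.132). Between Nav1.8 and Nav1.9, 0 of the 9 passed, with 0.0385% of all genes and 2 of the 9 at an unadjusted p under 0.05 (1644 of all 18193 genes).

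The littermates of the 3 lines also differed from one another, and 5 of the 9 genes passed in at least 1 of the 3 comparisons. The share of all genes that passed in at least 1 was not counted, here or for the fit with *Xist* below. Between Nav1.7 and Nav1.8 littermates 4 passed, with 23.3% of all genes. *Cacna1h* differed by -0.30, *Cacng2* by -0.30 and *Cacna2d1* by -0.19, all lower in Nav1.7 littermates, and *Cacnb4* by 0.21. Between Nav1.7 and Nav1.9 littermates 2 passed, with 12.2% of all genes, *Cacna1c* at 0.20 and *Cacna2d1* at -0.24. Between Nav1.8 and Nav1.9 littermates 3 passed, with 12.8% of all genes, *Cacng2* at 0.38, *Cacna1h* at 0.23 and *Cacna1c* at 0.19. All Nav1.7 littermate arrays were high in *Xist* and all Nav1.8 and Nav1.9 littermate arrays low, so line and sex cannot be told apart from the littermate arrays alone in the comparisons with Nav1.7 littermates. With *Xist* class as a term in the fit, which rests on the 3 KO arrays that differ in class from the rest of their line, 3 of the 9 genes passed in at least 1 comparison. Line, genetic background and any batch cannot be told apart in any of the 3. Some of them were as large as the KO effects, and each KO effect is relative to its own littermates.

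The order of the group means follows from this. *Cacna1h* was lowest in Nav1.7 KO DRG at 8.11, then 8.49 in Nav1.7 littermates, 8.57 and 8.58 in Nav1.9 littermates and KO, 8.66 in Nav1.8 KO and 8.80 in Nav1.8 littermates. The first step alone had no overlap of arrays, and each later neighbour overlapped the next. *Cacna2d3* had the same break after Nav1.7 KO at 8.99, and its other 5 groups lay between 9.26 and 9.35. *Cacng2* broke after Nav1.7 KO at 8.08 and again between Nav1.9 KO at 8.56 and Nav1.8 KO at 8.74. *Cacnb4* had no break, with means from 11.06 in Nav1.7 KO to 11.31 in Nav1.7 littermates. *Cacna2d1* had 1 break, between Nav1.7 KO at 11.93 and Nav1.8 littermates at 12.04, with Nav1.9 littermates above them at 12.09. Its highest levels were thus in littermate groups.

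*Cacna2d2* stood apart by its spread, a pattern that was chosen after its values were seen. The gene encodes alpha2delta-2, which is lost in ducky mice. Its range over the 18 arrays was 1.72, from 9.45 to 11.17, against 0.30 to 0.96 for the other 8 genes. The Nav1.8 KO arrays read 11.17, 11.14 and 11.11, against 10.03, 9.94 and 11.16 in their littermates. The Nav1.9 KO arrays read 9.88, 9.86 and 9.85, against 10.60, 9.87 and 10.42 in their littermates. Both global KO groups were tight, with SDs of 0.0314 and 0.0116, at opposite ends of the range that their littermates covered, with SDs of 0.677 and 0.379. The other 2 probe sets of *Cacna2d2* were much dimmer and ranged from 5.48 to 5.86 and from 3.54 to 3.90 over all arrays.

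Of the 10 genes with the strongest correlation in either direction, 6 were on chromosome 9, where 5.55% of 18142 genes with a position lie. They were *Abhd14a* (r = -0.960), *Pik3r4* (-0.903), *Acy1* (0.883), *Nme6* (-0.823), *Alas1* (0.813) and *Hemk1* (0.810), over 18 arrays that share lines and groups. For the other 5 subunits with such a list, 0 to 3 of the 10 genes were on the chromosome of the subunit. *Acy1* encodes an enzyme that deacetylates amino acids, and *Alas1* the first enzyme of haem synthesis. *Abhd14a* read 9.95, 9.92 and 9.94 in Nav1.8 KO arrays against 10.50, 10.48 and 10.03 in littermates. The littermate array that was low for *Abhd14a* is the one that was high for *Cacna2d2*. *Scn10a* and *Scn11a*, the genes deleted in these lines, are on chromosome 9 too, while *Scn9a* is on chromosome 2 with *Cacnb4* and *Cacna1b*. The part of chromosomal position in these values was not tested.

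**Figure D4:**
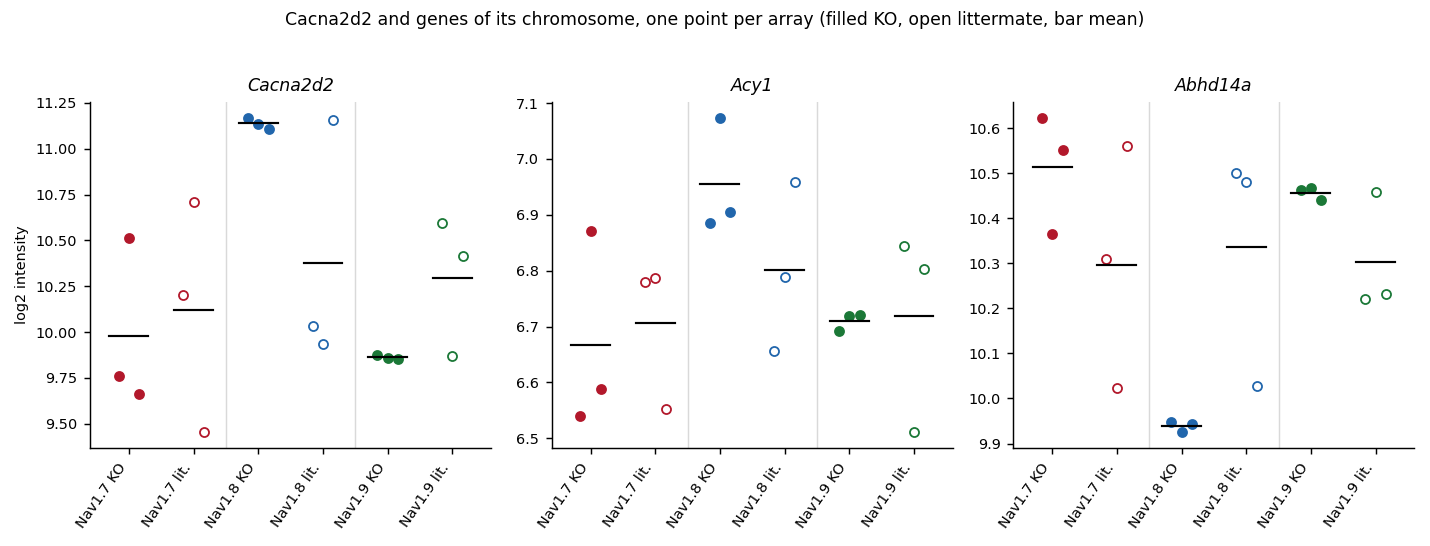
Log2 intensity (y axes, separate scales that do not start at 0) of *Cacna2d2*, *Acy1* and *Abhd14a*, all on chromosome 9, in the 6 groups (x axes), with 1 point per array, filled for KO and open for littermates, and a bar at each group mean. The Nav1.8 KO arrays of *Cacna2d2* lie at 11.11 to 11.17 and the Nav1.9 KO arrays at 9.85 to 9.88.

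The pattern of *Cacna2d1* over the arrays was closest to that of *Vgf*, the precursor of neuropeptides made by injured and active neurons (r = 0.907 over 18 arrays), followed by *Reep1* (0.873) and *Inpp5f* (0.865). *Vgf* lies on chromosome 5 with *Cacna2d1*. Of the 10 genes with the strongest correlation to *Cacna2d1* in either direction, 3 were there, against 6.23% of genes with a position. A list of 12 genes that rise in DRG neurons after nerve injury, *Vgf* among them, was set beside *Cacna2d1*. The gene followed the mean of the list at r = 0.801 over the 18 arrays, which share lines and groups. In Nav1.9 KO DRG 6 of the 12 injury genes fell, against 0.313% of all genes, and none rose. *Sprr1a*, a growth-associated protein of injured neurons, averaged 5.76 in KO and 8.96 in littermate DRG, and *Atf3*, the transcription factor that marks injured neurons, 7.74 in KO and 9.57 in littermate DRG. *Vgf*, *Npy*, *Flrt3* and *Jun* fell too, and the median of the list was -0.52. The mean of the list was 8.67 to 8.76 in Nav1.9 KO arrays, against 9.26 to 10.08 in littermate arrays. In Nav1.8 KO DRG 0 of 12 passed and the median was -0.26, and in Nav1.7 KO DRG 2 of 12, *Jun* and *Flrt3*, rose, against 1.81% of all genes, and the median was 0.31. The part of the injury genes in the *Cacna2d1* result was not tested.

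**Figure D5:**
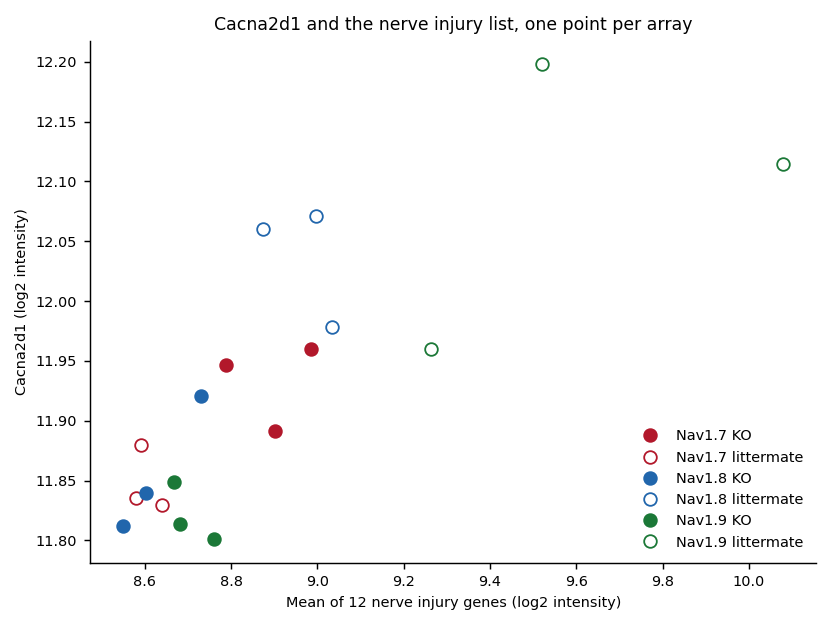
*Cacna2d1* log2 intensity (y axis) against the mean log2 intensity of 12 nerve injury genes (x axis), with 1 point per array, filled for KO and open for littermates, coloured by line. The 3 Nav1.9 littermate arrays have the highest list means, at 9.26 and above.

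The genes whose pattern was most like that of the subunits that fell in Nav1.7 KO DRG were found by the highest correlation over the 18 arrays. For *Cacna1h* they were *Golga7b* (r = 0.948), *Ube2e3* (0.942) and *Adar* (0.929), which encodes an RNA-editing enzyme. For *Cacna2d3* they were *Htr5b*, a serotonin receptor gene (0.914), *Raph1* (0.914) and *Lurap1l* (0.907). For *Cacnb4* they were *Asxl3* (0.924), *Bnc1* (0.896) and *Kcnd2* (0.860), the last of which encodes the A-type potassium channel Kv4.2. For *Cacng2* they were *Ube2ql1* (0.920), *Trnp1* (0.917) and *Cdc5l* (0.917). The 12 names do not repeat between the 4 subunits.

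None of the rest of the subunit family passed in any line. Of 16 further subunit genes 15 were measured, all but *Cacna1i*, and 0 of 15 passed by limma in each line. Some were dim, since *Cacna1s*, *Cacna2d4*, *Cacng1*, *Cacng3*, *Cacng6* and *Cacng8* averaged under 5.65, the 40th percentile of brightness, in every group. Whether these are above background is not known, so they do not show that the genes were unchanged. At an unadjusted p under 0.05 there were 1 of the 15 in the Nav1.7 line (2966 of all 18193 genes), 3 in the Nav1.8 line (1472) and 2 in the Nav1.9 line (2196). Their median differences were 0.04 in the Nav1.7 line, -0.06 in the Nav1.8 line and -0.01 in the Nav1.9 line. Among littermates *Cacng7*, which was chosen after its values were seen, differed in all 3 comparisons, at 6.97 ± 0.163 in Nav1.7, 7.87 ± 0.0722 in Nav1.8 and 7.48 ± 0.0643 in Nav1.9 littermates (SD, n = 3 each).

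Among 17 measured partners of the channels, 2 fell in Nav1.7 KO DRG, where 2.51% of all genes fell, and none rose. *Rem2*, a small GTPase that inhibits high-voltage-activated calcium channels, averaged 9.08 in Nav1.7 KO and 9.59 in littermate DRG, a difference of -0.51 (adjusted p = 0.000878). *Rims1*, a scaffold of the release site that holds calcium channels near vesicles, averaged 9.74 in KO and 10.02 in littermate DRG, a difference of -0.28 (adjusted p = 0.0291). In Nav1.9 KO DRG 1 of 17 fell, against 0.313% of all genes. It was *Thbs3*, a thrombospondin, with a difference of -0.44 (adjusted p = 0.0163). In Nav1.8 KO DRG 0 of 17 passed by limma, with 3 at an unadjusted p under 0.05 (1472 of all 18193 genes). The median of the partners lay between -0.01 and 0.01 in each line.

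Of 10 measured genes of calcium release and store-operated entry, 1 passed, *Orai3*, a store-operated channel, which rose in Nav1.7 KO DRG by 0.20 (adjusted p = 0.0161), where 1.81% of all genes rose. It averaged 8.02 in KO and 7.82 in littermate DRG. Of 18 measured genes that carry calcium signals to the nucleus, 0 passed by limma in each line. An unadjusted p under 0.05 was found for 3 in the Nav1.7 line (2966 of all 18193 genes), 4 in the Nav1.8 line (1472) and 5 in the Nav1.9 line (2196). The median of those 18 was 0.03 in the Nav1.7 line, -0.02 in the Nav1.8 line and 0.01 in the Nav1.9 line.

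Markers of the cell types of the ganglion are given beside the Nav1.7 result. Of 8 measured sensory neuron markers 1 fell in Nav1.7 KO DRG, *Avil*, where 2.51% of all genes fell. An unadjusted p under 0.05 was found for 5 of the 8, against 2966 of all 18193 genes in this line. The median of the list was -0.08. The list averaged 12.06 to 12.07 in Nav1.7 KO arrays and 12.22 to 12.26 in littermate arrays. This average includes *Avil*, the gene that drives Cre, at -0.64 and *Scn10a* at -0.38, both further from 0 than the median of the list. Of 8 macrophage markers 0 passed in Nav1.7 KO DRG, with 4 at an unadjusted p under 0.05 and a median of 0.37. The macrophage list averaged 7.18 to 7.64 in KO arrays and 6.85 to 7.22 in littermate arrays. Of 5 satellite glia markers 1 rose in Nav1.7 KO DRG, where 1.81% of all genes rose, and the median of the list was 0.07. It was *Fabp7*, a fatty acid binding protein, with a difference of 0.36 (limma, adjusted p = 0.0175). Muscle markers spread widely, at 6.78 to 8.94 in Nav1.7 KO arrays and 6.79 to 8.01 in littermate arrays, with a median of 0.54, and 0 of 9 passed. Markers of spinal cord stayed at 5.05 to 5.26 in all 18 arrays. Schwann cell, fibroblast and endothelial lists had no gene past the threshold in any line. The part of these differences in the fall of *Cacna1h*, *Cacna2d3*, *Cacnb4* and *Cacng2* was not tested.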

How the data were processed

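Gene expression in DRG was measured on 18 Affymetrix arrays, 3 for each of 6 groups. The deposited values, 1 for each probe set on each array, are log2 intensities from Affymetrix Expression Console, which the authors ran, by the submitters' processing notes. The summary method and the normalization between arrays are not given in the sources used here, and without detection calls it is not known which dim probe sets are above background. That they are on a log2 scale was taken from their range. Array medians ran from 6.33 to 6.36.

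Groups came from the titles and genotype labels, since the source name is littermate control for all 18 samples. The 64 control probe sets were left out. By the platform annotation, 34945 of 45037 probe sets are paired with 1 symbol, 932 with several symbols and 9160 with none. Each of 18193 genes was given by its brightest probe set among those named for it alone. The genes described, the gene lists and the tests were chosen with earlier results of these data known.

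With limma 3.58.1 (R 4.3.3), lmFit and eBayes were run on all genes with 6 group means, two-sided, with residual degrees of freedom of 12 and prior degrees of 3.44, and again over all 45037 probe sets. P-values were adjusted over all genes or all probe sets (Benjamini-Hochberg, threshold 0.05). Each KO was set against its own littermates, and contrasts were also made of the differences of these effects between lines and of the differences between littermates. Named genes are the 10 subunits, the targeted genes, the members of the lists that passed, and the 3 genes with the highest correlation to a subunit that passed. *Cacna2d2* and *Cacng7* were added after their values were seen. The fit was first tested on simulated data. With 3 arrays a group, exact permutation of labels has a smallest two-sided p of 0.1 and was not used. The number of arrays limits the precision. Promoter sequences are from RefSeq (GRCm38.p6).

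Alternatives were quantile normalization, median centring, removal of dim or cross-hybridizing probe sets, averaging the probe sets of each gene, a replicate block, array weights, a prior with trend and robust options, *Xist* class as a term, each line fitted alone, analysis of variance, the thresholds of the study (a fold change over 1.5 with an unadjusted p under 0.01, whose joint use is a reading made here) and leaving out each array. A fit with arrays of 1 *Xist* class per line was chosen after seeing the data.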

Additional observations from a re-analysis of the deposited data

Results flagged for a closer look

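The KO effect on a subunit gene differed between lines for 4 genes by the test of the difference in limma, and these are given for a closer look. For *Cacna2d3* the Nav1.7 effect minus the Nav1.9 effect was -0.37, which passed under 21 of 22 alternatives, and the Nav1.7 effect minus the Nav1.8 effect was -0.28, which passed under 8 of 22. The Nav1.7 effect minus the Nav1.9 effect was -0.56 for *Cacng2* (21 of 22), -0.39 for *Cacna1h* (11 of 22) and 0.35 for *Cacna2d1* (21 of 22). The value of *Cacna2d1* is that of its brightest probe set, and its highest adjusted p over the alternatives was 0.801 (limma). Of its 5 probe sets 3 were lower and 2 higher in Nav1.7 KO DRG, and 2 were lower and 3 higher in Nav1.9 KO DRG. For *Cacna2d1*, *Cacna2d3* and *Cacng2* the Nav1.7 and Nav1.9 KO arrays lay on opposite sides of their own littermates, with no overlap in either line. Over all genes, 20.4% did not overlap in the Nav1.7 line and 18% in the Nav1.9 line, and the share for both was not counted. The differences of *Cacna2d1* in the Nav1.7 line and of *Cacna2d3* and *Cacng2* in the Nav1.9 line did not pass. The littermates of the 2 lines also differed for *Cacna2d1*, by -0.24 for Nav1.7 minus Nav1.9 littermates, and the part of that difference in the KO effects was not tested.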

How the results depend on the processing

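No result changed direction in a call: over 18 alternatives for each of the 5 calls, 90 of 90 values kept the direction and 68 of 90 still passed. Of 22 values that did not pass, 11 changed sign under some alternative, and none of those was larger than 0.14. The count of 4 genes in Nav1.7 KO DRG was 1 with the mean of all probe sets, 2 with arrays of 1 *Xist* class (*Cacna1h* and *Cacna2d3*), 2 with the line fitted alone (*Cacna2d3* and *Cacnb4*), 1 by analysis of variance (*Cacna2d3*) and 0 at the thresholds of the study. The count of 1 in Nav1.9 KO DRG was 0 under each of those settings. Members whose KO effect differs between lines numbered 4, and 1 with the mean of all probe sets. Littermate differences numbered 5, with 2 by the mean of all probe sets and 3 with *Xist* class as a term. The count of 5 probe sets was 0 with each line fitted alone. The cause of each loss was not tested.

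Leaving out each array gave 3 to 4 genes in Nav1.7 KO, 0 to 0 in Nav1.8 KO and 0 to 1 in Nav1.9 KO DRG, 3 to 4 differences between lines, 4 to 5 between littermates, and 3 to 7 probe sets. The 3 probe sets came without Nav1.7 littermate replicate 2, littermate replicate 3 or KO replicate 2.

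The replicate numbers of KO and littermate arrays were not taken to pair the samples, since no line had a clear correlation in every same-numbered pair. Deviations of same-numbered arrays correlated at 0.0154 to 0.266 in the Nav1.7 line, -0.11 to 0.263 in the Nav1.8 line and -0.194 to 0.0624 in the Nav1.9 line. Each array of the Nav1.7 line correlated best with its own number, a hint of pairing from the data and not from the design. With the number as a replicate block the counts were 4 genes in the Nav1.7 line and 0 in each of the other lines, 2 differences between lines and 3 probe sets.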
